A study of Mus musculus with 15 samples.

Results

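The contractile and excitation genes of skeletal muscle were followed through 15 RNA libraries of mouse eyes sequenced with their eyelids. The set holds 44 genes, named by symbol, out of 20418 gene symbols in the deposited tables. They were sorted by role into 10 thin filament genes, 7 thick filament genes, 3 genes of the M band and titin, 7 genes of the Z disc and desmin, 6 genes of calcium release and storage, 2 membrane genes, 6 energy genes and 3 subunits of the muscle acetylcholine receptor. All 44 had reads in all 15 libraries.

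The mice were BALB/c, and the Egr1-/- allele had come from a C57BL/6 line that was backcrossed to BALB/c. The study asked how Egr1, an immediate-early transcription factor, acts in eyelid development on this background. Wild-type eyes gave 2 newborn libraries and 1 adult library, and eyes labelled Egr1-/- gave 2 newborn and 2 adult libraries. The labels tie neither set to animals, give no age in days for the adults and do not say how many eyes entered a library, so p-values there measure only the spread between libraries. At day 3, 8 single eyes came from 4 mice. Mice E24 and E29 (labelled Egr1-/-) had 1 open and 1 closed eye each, both eyes of E32 (labelled Egr1-/-) were open, and both eyes of the Egr1+/- littermate E28 were closed. The labels name no promoter, Cre or deleted exon for the allele, and no treatment set one group apart from another.

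In a muscle fibre, the nerve releases acetylcholine onto a receptor of several subunits, and the electrical signal spreads along the membrane to the calcium channel Cacna1s. That channel opens Ryr1, the calcium release channel of the sarcoplasmic reticulum. Calcium binds troponin on the actin filament, myosin then pulls on actin, and the pump Atp2a1 returns the calcium. Many of these proteins come in fast, slow, cardiac and developmental forms that replace each other as a muscle matures. Eyelids are closed by the orbicularis muscle, and extraocular muscles move the globe. The tissue as collected may hold both, and reads do not separate them.

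The 250 bases before the gene start are given for 7 members that the results turn on: Acta1, the most abundant member at each stage; Chrng, Casq2 and Myl4, which were lower in adult eyes; Ckmt2 and Mybpc2, which were higher there; and Chrne, the partner of Chrng. Each is read 5′ to 3′ on the strand of the gene and ends at the base before the start. Capitals mark every E box (CANNTG, the core bound by myogenic factors such as MyoD and myogenin, which reads the same on both strands), the N box (CCGGAA on either strand, known from end plate genes) and the CArG box bound by serum response factor. The sequences are from RefSeq on GRCm38.p6, at chr8:123894776-123895025 (minus strand) for Acta1, chr1:87205561-87205810 (plus) for Chrng, chr11:70619195-70619444 (minus) for Chrne, chr3:102086165-102086414 (plus) for Casq2, chr11:104550413-104550662 (plus) for Myl4, chr13:91876886-91877135 (minus) for Ckmt2 and chr7:44524670-44524919 (minus) for Mybpc2.
Acta1: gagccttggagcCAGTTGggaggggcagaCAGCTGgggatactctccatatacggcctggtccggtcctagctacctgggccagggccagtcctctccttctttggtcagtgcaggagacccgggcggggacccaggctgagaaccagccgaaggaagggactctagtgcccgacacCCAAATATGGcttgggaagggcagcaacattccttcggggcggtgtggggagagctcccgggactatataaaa
Chrng: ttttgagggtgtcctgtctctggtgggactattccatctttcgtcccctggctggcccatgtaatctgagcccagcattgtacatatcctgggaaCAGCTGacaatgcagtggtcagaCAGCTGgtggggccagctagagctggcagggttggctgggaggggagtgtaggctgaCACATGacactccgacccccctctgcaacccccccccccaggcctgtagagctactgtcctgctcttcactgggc
Chrne: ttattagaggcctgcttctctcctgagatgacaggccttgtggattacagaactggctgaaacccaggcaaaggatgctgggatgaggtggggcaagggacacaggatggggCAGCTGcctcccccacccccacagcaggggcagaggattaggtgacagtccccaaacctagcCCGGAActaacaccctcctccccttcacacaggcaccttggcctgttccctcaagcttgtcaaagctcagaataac
Casq2: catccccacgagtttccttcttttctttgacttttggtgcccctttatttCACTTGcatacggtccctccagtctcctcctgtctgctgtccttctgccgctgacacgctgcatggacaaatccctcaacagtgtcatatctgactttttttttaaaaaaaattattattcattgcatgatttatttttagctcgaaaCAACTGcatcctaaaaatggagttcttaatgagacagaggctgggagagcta
Myl4: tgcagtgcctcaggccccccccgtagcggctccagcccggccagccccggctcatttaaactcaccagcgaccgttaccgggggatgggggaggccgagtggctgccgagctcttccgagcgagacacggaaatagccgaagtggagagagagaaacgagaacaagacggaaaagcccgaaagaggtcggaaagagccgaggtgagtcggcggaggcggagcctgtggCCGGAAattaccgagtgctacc
Ckmt2: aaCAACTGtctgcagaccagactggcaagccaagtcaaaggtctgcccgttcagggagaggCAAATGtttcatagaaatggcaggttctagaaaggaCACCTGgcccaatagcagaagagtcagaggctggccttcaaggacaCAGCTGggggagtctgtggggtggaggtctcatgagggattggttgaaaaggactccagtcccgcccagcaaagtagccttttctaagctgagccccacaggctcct
Mybpc2: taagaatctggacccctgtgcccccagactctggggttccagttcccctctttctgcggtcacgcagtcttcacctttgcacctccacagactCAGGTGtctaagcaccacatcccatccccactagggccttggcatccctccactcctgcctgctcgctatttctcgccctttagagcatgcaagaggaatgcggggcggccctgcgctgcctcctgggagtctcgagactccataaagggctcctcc

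RefSeq gave such a window for 35 of the 44 members, with 40 gene starts between them. An E box was present in 35 of these 40 windows (87.5%), against 66.2% of all 32851 windows of this length. The E box spelled CAGCTG, a subset of the first, was present in 22 of 40 (55%) against 13% of all. It lay 155 and 132 bases before the start of Chrng, and 138 bases before that of Chrne. The CArG box was present in 6 of 40 windows (15%) against 1.47% of all. These belonged to 5 of the 35 genes, Acta1 and Actc1 among them. Where a gene has starts close together, its windows overlap and can count the same box again, for E boxes too. The N box was present in 3 of 40 (7.5%) against 12% of all, among them Chrne and Myl4. The letters describe these windows only, since binding was not measured.

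Levels are given as normalised RPKM, that is reads scaled to exon length and to the library's size after TMM scaling (1 scale factor per library), so that genes and libraries can be compared on 1 scale. Libraries held 20334849 to 43907093 reads in transcripts. Egr1 itself stood against the labels: it was at 10.8 to 19.7 RPKM in the 3 wild-type libraries, at 32.3 and 35.9 in the heterozygous eyes and at 51 to 119 in the libraries labelled Egr1-/-. These are therefore called labelled knockout, and no direction below is a statement about loss of Egr1. In the first newborn labelled-knockout library, 9 lens genes summed to 531 RPKM, against 69500 to 76000 in the other newborn libraries. The members' summed level was 2710 and 3340 RPKM in newborn wild types, 5410 and 6670 in newborn labelled knockouts, 1720 to 6710 at day 3, 4240 in the adult wild type, and 4630 and 1590 in the adult labelled knockouts. The second adult labelled knockout thus held the least member RNA of all 15 libraries. In whole tissue, fewer muscle cells and less RNA per cell cannot be told apart.

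**Figure D1:**
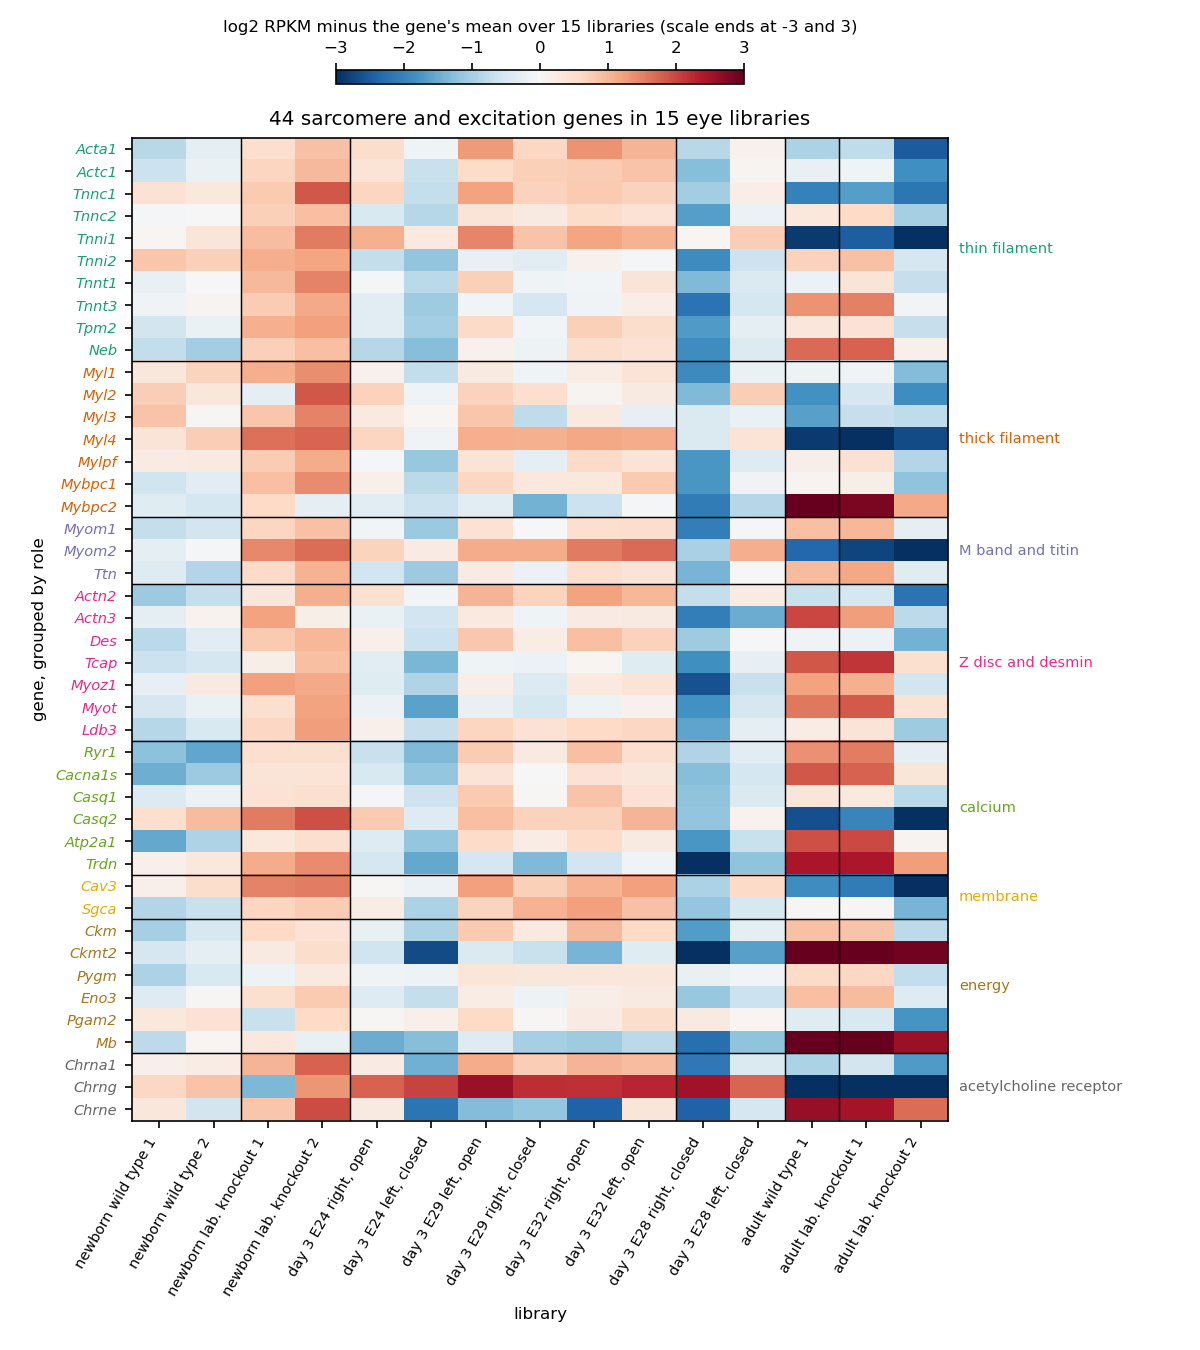
Each row is 1 of the 44 genes and each column 1 of the 15 libraries; colour gives the log2 RPKM minus the mean of the gene over the 15 libraries, and vertical lines separate the groups, with the 6 labelled-knockout eyes of day 3 together. Most rows turn red or blue together within a young library, the right eye of E28 is blue for most rows, and the 3 adult columns split into genes above and below their mean.

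Markers of other muscle types were set beside this label. The cardiac list (Tnni3, Tnnt2, Myh6, Nppa, Myl7 and Mybpc3) summed to 2.45 to 27.2 RPKM over the 15 libraries, with Mybpc3 at 0 to 1.32. Tnnt2, which immature skeletal muscle also expresses, was the largest of the 6 in the newborn libraries. The smooth muscle list of 8 genes summed to 153 to 1020 RPKM. Acta1, the actin of skeletal muscle thin filaments, made up 33.8% of the members' mean sum in newborn eyes, 47.3% at day 3 and 16.1% in adults.

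Adult and newborn eyes differed in which members they held. Of the 44 genes tested, 10 were higher in adult eyes (22.7%) and 11 lower (25%) at an adjusted p under 0.05 in edgeR's quasi-likelihood test with Benjamini-Hochberg adjustment. Over all 17592 genes tested the shares were 25.3% higher and 24% lower, so the number of calls among the members was near the background, and it is the genes that are described. The median log2 fold change of the members was -0.23, beside -0.04 over all genes. Between these ages, 3 members had every adult library above every newborn one and 11 had every adult library below, against 23.5% and 23.9% of all genes. The fit weighs wild-type and labelled-knockout eyes equally. Marker lists of other tissues also differed between these ages. All 6 rod genes and 4 of 6 basal epidermis genes were called higher in adult eyes. Of 6 fibroblast genes 5 were called lower and 1 higher, and of 5 Schwann cell genes 4 and 1. Also lower were 3 of 8 smooth muscle genes and 3 of 6 cardiac genes. The part of tissue make-up in the members' age differences was not tested.

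The receptor subunits showed the widest change. Chrng encodes the gamma subunit, which belongs to the fetal form of the receptor, and Chrne the epsilon subunit, which replaces it in the adult form. Chrng was at 21.3 and 25.2 RPKM in newborn wild types and at 5.43 and 35.1 in newborn labelled knockouts. The 5.43 came from the library with 531 RPKM of lens genes. It was at 0.454 in the adult wild type and at 0.0687 and 0.193 in the adult labelled knockouts, from 19, 3 and 8 reads. No adult library came near a newborn one, and the fitted difference was -6.48 ± 0.90 on the log2 scale (SE, adjusted p = 0.00105, edgeR), 89.4-fold lower in adults. Chrne was at 0.149, 0.0806, 0.209 and 0.459 RPKM in the newborn libraries (5, 3, 10 and 19 reads), and at 0.721, 0.664 and 0.378 in adults (25, 24 and 13 reads). Its groups overlapped, and its difference of 1.62 ± 0.59 did not pass (adjusted p = 0.0562, edgeR). Chrne took 0.319% to 3.71% of the summed Chrne and Chrng level in newborn libraries and 61.4% to 90.6% in adults. Whether all Chrng reads came from muscle was not tested, so this share need not describe muscle alone. Chrna1, the alpha subunit found in both forms, was at 1.92, 2.02, 3.52 and 5.84 in newborn eyes and at 0.899, 1.18 and 0.529 in adults, lower by an edgeR log2 difference of -1.81 ± 0.34 (adjusted p = 0.00387).

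Thin filament genes split by isoform. Tnni1, the slow troponin I, was at 21.1, 26.1, 38.3 and 59.4 RPKM in newborn eyes and at 2.79, 3.65 and 1.02 in adults, 13.4-fold lower (log2 -3.75 ± 0.46, adjusted p = 0.000582, edgeR). Tnni2, its fast counterpart, was at 263 to 360 in newborn eyes, at 258 in the adult wild type and at 202 ± 126 (SD, n = 2) in the adult labelled knockouts, and did not pass (adjusted p = 0.271, edgeR). Tnni2 therefore took 85.8% to 93.1% of the pair in newborn libraries and 98.8% to 99.1% in adults. Tnnc1, the troponin C of slow and cardiac muscle, was at 14.6 to 42.3 in newborn and 2.57 to 3.69 in adult eyes, a fall by 2.87 ± 0.34 on the log2 scale (adjusted p = 0.000524, edgeR). Neb, the giant nebulin along the actin filament, rose by 1.46 ± 0.35 (adjusted p = 0.0118, edgeR), though with 1.46 RPKM in the second adult labelled knockout and 2.16 and 2.44 in the newborn ones its groups overlapped. The other 7 thin filament genes did not pass. Acta1 was at 745, 1080, 1870 and 2440 RPKM in newborn eyes and at 682, 771 and 232 in adults, with an adjusted p of 0.067 (edgeR). Tnnc2 shares 74% of its annotated exon bases with Ube2c on the other strand, and these libraries keep no strand. Ube2c, a gene of dividing cells, was at 3.12 to 5.71 in adult and 25.3 to 60.6 in all younger eyes, so single values of Tnnc2 are uncertain.

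Among thick filament genes, the embryonic and atrial light chain Myl4 fell most. It was at 36.4, 45.9, 87.5 and 92.1 RPKM in newborn eyes and at 3.79, 1.84 and 4.3 in adults, 18-fold lower (log2 -4.17 ± 0.33, adjusted p = 9.98e-05, edgeR). Myl1, the fast essential light chain, fell less (-1.26 ± 0.31, adjusted p = 0.0134, edgeR), and its share of the summed Myl1 and Myl4 level went from 72.4% to 79.1% in newborn libraries to 91% to 98.2% in adults. Myl2 and Myl3, light chains of slow and cardiac muscle, were low throughout and fell by 2.28 and 2.02 on the log2 scale. Myl3 had 5, 10 and 9 reads in the adult libraries. It shares 95 annotated exon bases (4.65%) with Pth1r on the other strand. Pth1r was at 2.37 to 3.35 RPKM in adult and 9.44 to 21.4 in newborn eyes. The part of Pth1r in the Myl3 reads was not tested, so the fall of Myl3 is uncertain. Mylpf, the fast regulatory light chain, did not pass. Mybpc2, the fast myosin binding protein C, was at 2.31, 2.07, 4.46 and 2.42 RPKM in newborn eyes and at 23.9, 21.1 and 6.56 in adults, with no overlap. It rose 6.54-fold (log2 2.71 ± 0.41, adjusted p = 0.00148, edgeR). Its slow counterpart Mybpc1 did not pass (log2 -0.52 ± 0.34, adjusted p = 0.239, edgeR), and Mybpc2 went from 4.96% to 16.9% of the pair to 46.7% to 56.9%.

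Genes of the M band, which links thick filaments at the middle of the sarcomere, also parted. Myom2, known from fast fibres and heart, was at 2.44, 2.84, 8.05 and 9.42 RPKM in newborn eyes and at 0.584, 0.444 and 0.168 in adults, 11.4-fold lower (log2 -3.52 ± 0.33, adjusted p = 0.000188, edgeR). Myom1 and titin (Ttn), the spring from Z disc to M band, did not pass, at log2 differences of 0.62 ± 0.29 and 0.65 ± 0.36. Myom2 took 42.8% to 49.1% of the 2 myomesins in newborn libraries and 3.7% to 5.48% in adults. Of the 7 genes of the Z disc and desmin, Tcap (telethonin) rose by 1.68 ± 0.39 (adjusted p = 0.00992, edgeR) and Myot (myotilin) by 1.15 ± 0.35 (adjusted p = 0.0286, edgeR). The groups overlapped for both. The second adult labelled knockout was at 57.2 and 8.32 RPKM, below the second newborn labelled knockout at 77.5 and 14.3. Actn2, Actn3, Des, Myoz1 and Ldb3 lay between -0.86 and 0.93 and did not pass.

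The calcium genes moved in both directions. Atp2a1, the calcium pump of fast fibres, was at 39.9, 61.1, 144 and 164 RPKM in newborn eyes and at 444, 458 and 123 in adults, and rose by 2 ± 0.46 on the log2 scale (adjusted p = 0.00924, edgeR). Cacna1s, Ryr1 and the junctional protein Trdn rose by 1.96, 1.57 and 1.43. In each of these 4 the second adult labelled knockout was the lowest adult library, and it lay below at least 1 newborn library. Casq2, the calsequestrin of slow and cardiac muscle that stores calcium, was at 14.2, 19.3, 29.6 and 38 in newborn eyes and at 1.6, 2.54 and 1.26 in adults. That is 13.8-fold lower (log2 -3.78 ± 0.32, adjusted p = 0.000125, edgeR). Casq1, the fast form, had a difference of -0.01 ± 0.26, and its share of the 2 calsequestrins was 56.4% to 65.1% in newborn and 94.1% to 96.6% in adult libraries. Cav3, the caveolin of the muscle membrane, was at 13.6 to 35.8 in newborn and 1.12 to 3.37 in adult eyes, and fell by 3.19 ± 0.33 (adjusted p = 0.000311, edgeR). Sgca, a sarcoglycan of the dystrophin complex, did not pass.

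The largest rises were in energy genes. Ckmt2, the mitochondrial creatine kinase of striated muscle, was at 2.85, 3.31, 4.91 and 5.79 RPKM in newborn eyes and at 73.1, 93.8 and 30 in adults. It was 16.3-fold higher (log2 4.03 ± 0.38, adjusted p = 0.000199, edgeR). Mb, the oxygen store myoglobin, was at 8.64, 15.6, 18.8 and 12.8 in newborn eyes and at 180, 231 and 89.6 in adults, 12.1-fold higher (log2 3.60 ± 0.38, adjusted p = 0.000328, edgeR). Even the second adult labelled knockout, with the least member RNA, lay above every newborn library for both. Ckm, the cytosolic creatine kinase, and the glycolytic genes Pygm, Eno3 and Pgam2 did not pass (log2 differences of 0.65, 0.61, 0.41 and -0.91).

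**Figure D2:**
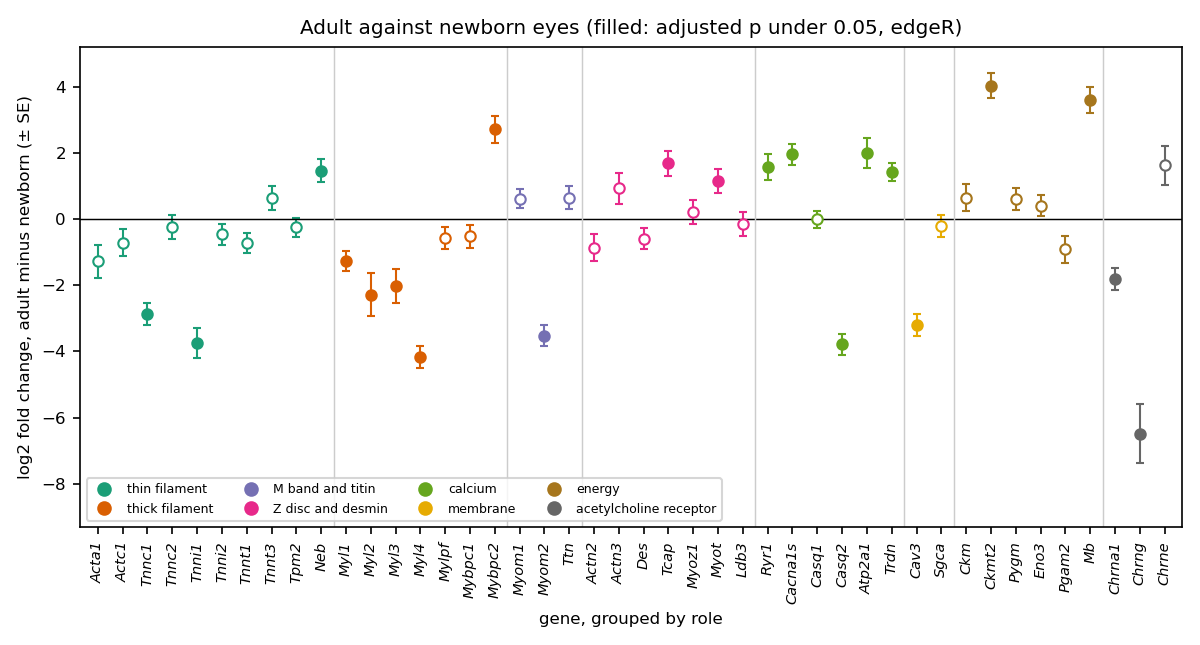
Points give the log2 fold change of each of the 44 genes, adult minus newborn, with its SE; filled points passed at an adjusted p under 0.05 in edgeR and colours give the role. Ckmt2 at 4.03 and Mb at 3.60 are the highest, Chrng at -6.48 is the lowest, and filled points lie on both sides of 0 in the thin filament, thick filament and calcium genes.

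Of the 21 calls, 10 passed under every alternative in which the gene was tested: Ckmt2, Mb and Mybpc2 as higher, and Casq2, Cav3, Chrng, Myl4, Myom2, Tnnc1 and Tnni1 as lower. Without the first newborn wild type, Atp2a1, Myl2, Myot, Ryr1 and Tcap no longer passed (adjusted p from 0.0546 to 0.109, edgeR), and without the second, Myl1, Myl2, Myot, Neb, Ryr1 and Tcap did not (0.0529 to 0.0829). Myot also failed without the first newborn labelled knockout (0.0589), and Myl3 without the second (0.0801). In labelled-knockout libraries alone, Atp2a1, Cacna1s, Myot, Neb, Ryr1, Tcap and Trdn did not pass, with log2 differences from 0.37 to 0.95, and neither did Myl2 (-2.18, adjusted p = 0.0529, edgeR). In wild-type libraries alone, Myl1 (-0.69), Myl2 (-2.39), Myl3 (-2.13) and Chrna1 (-1.17) did not pass (adjusted p from 0.0954 to 0.302, edgeR). More members were called without the first adult labelled knockout, but the share of all genes called in that fit is not given.

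**Figure D3:**
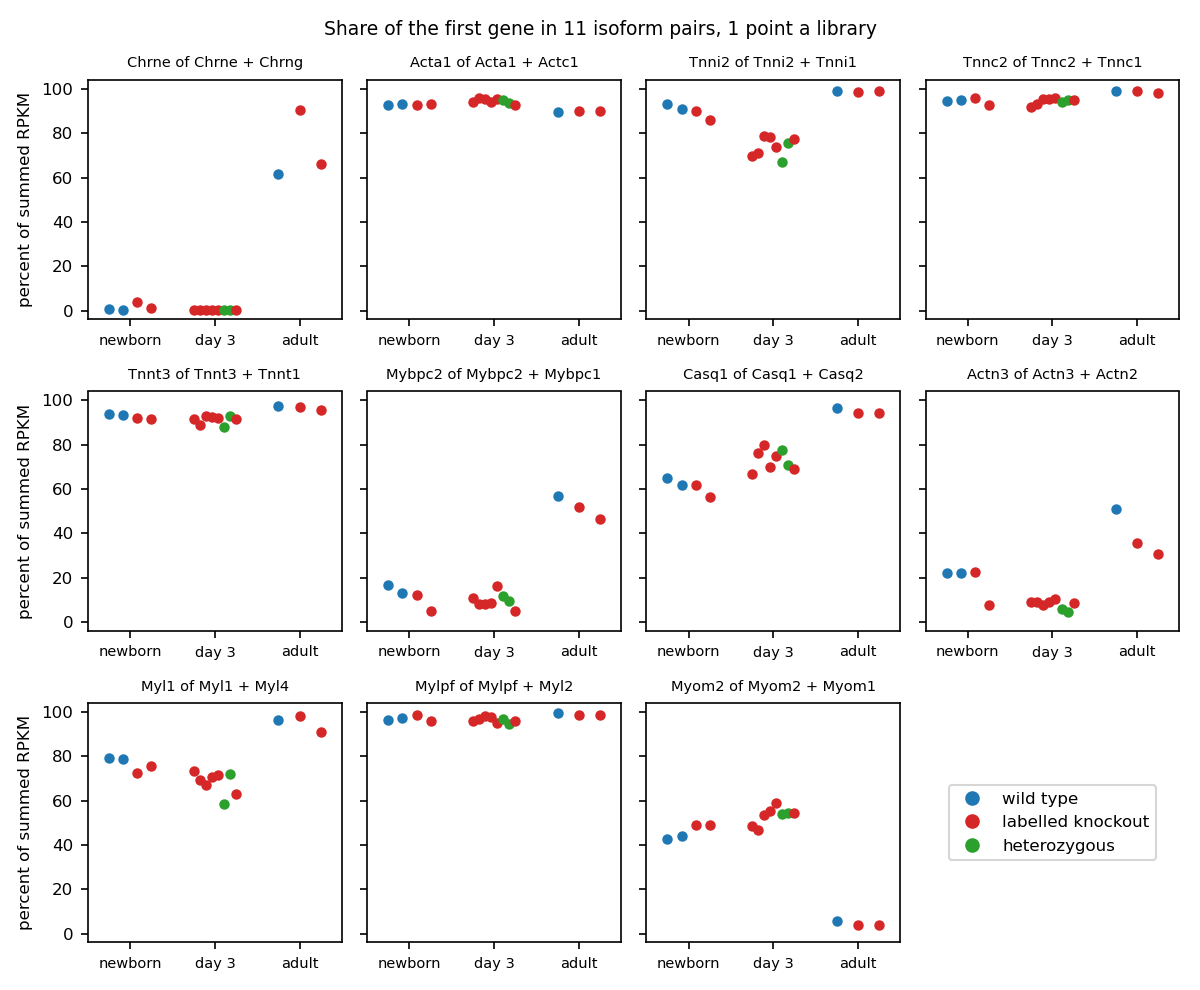
Each panel shows, for 1 of 11 pairs of related genes, the percent that the first gene takes of the summed RPKM of both, with 1 point for each of the 15 libraries by stage and colour for genotype. Chrne, Mybpc2 and Casq1 take a larger share in adults, Myom2 falls from 42.8% to 58.7% in young eyes to 3.7% to 5.48% in adults, and the share of Acta1 stays between 89.5% and 95.9%.

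In newborn eyes, 12 of the 44 members were higher in labelled knockout than in wild type and none was lower (27.3%, against a background of 14.6% of 17592 genes called higher and 9.38% called lower, edgeR). The members' median log2 fold change was 1.14, beside -0.07 over all genes, and 42 of 44 were above 0. At an unadjusted p under 0.05 there were 24 members, and 36.9% of all genes. Both labelled-knockout libraries lay above both wild types for 39 members (33.8% of all genes did so). Myom2 had the smallest adjusted p: it was at 2.44 and 2.84 RPKM in wild types and at 8.05 and 9.42 in labelled knockouts (log2 1.72 ± 0.34, adjusted p = 0.0121, edgeR).

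The newborn calls came from most roles. Thin filament genes that rose were Neb (1.68 ± 0.47), Tnnt1, the slow troponin T (1.35 ± 0.37), and the tropomyosin Tpm2, which was at 74.3 and 93.6 RPKM in wild types and at 225 and 255 in labelled knockouts (1.5 ± 0.38, adjusted p = 0.0282, edgeR). Myl4 and Mybpc1 rose among thick filament genes, by 1.12 ± 0.32 and 1.64 ± 0.43, and Myom1 in the M band by 1.40 ± 0.38. Ryr1 was at 1.92 and 1.52 in wild types and at 6.25 and 6.29 in labelled knockouts, which was the largest difference among the members (1.86 ± 0.52, adjusted p = 0.0399, edgeR). Cacna1s, Des, Ldb3 (a Z disc PDZ protein) and Sgca rose by 1.66, 1.44, 1.61 and 1.46. None of the 6 energy genes and none of the 3 receptor genes passed. Within the isoform pairs that did not pass, differences ran from -0.21 (Chrng) to 1.65 (Actn2, adjusted p = 0.0601, edgeR).

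Chrng and Pgam2 were the members below 0. Chrng was at 5.43 RPKM in the first labelled knockout and at 35.1 in the second, against 21.3 and 25.2 in wild types. Pgam2, the muscle phosphoglycerate mutase, was at 90.5 and 217, against 180 and 196. Myl2 showed the same split, at 3.95 and 17.5, against 8.11 and 6.08. The first labelled knockout, lowest for all 3, was the library with 531 RPKM of lens genes, while its other muscle genes were high (Acta1 1870, Ckm 484). The part of the missing lens in these values was not tested.

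**Figure D4:**
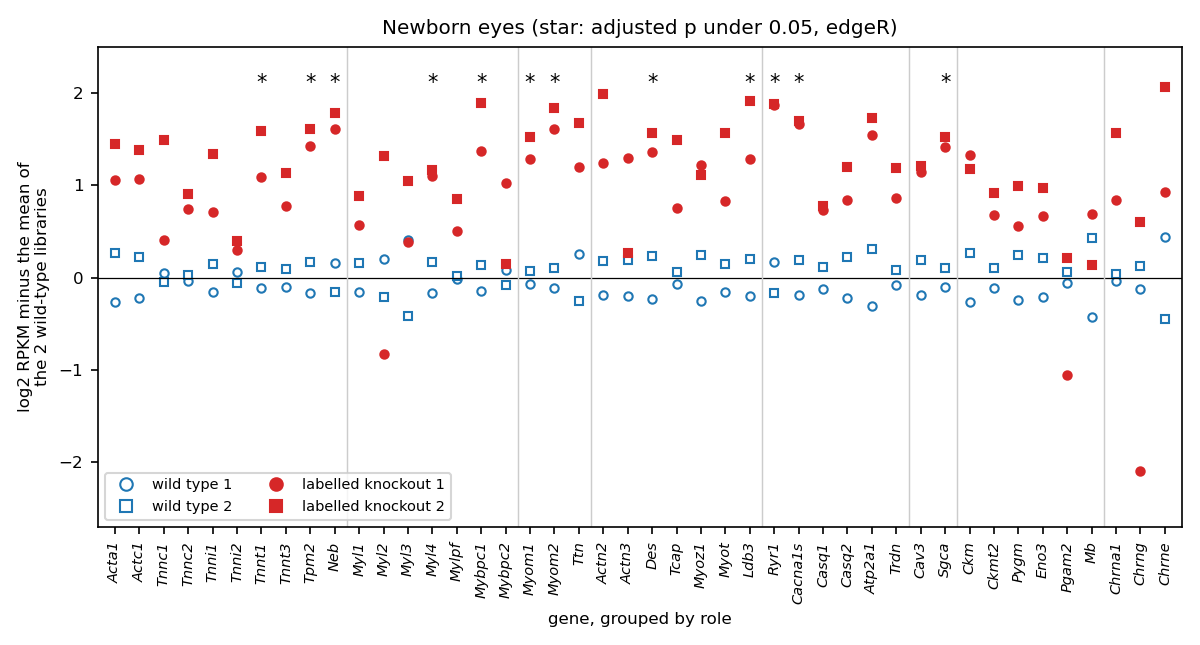
Points give, for each of the 44 genes, the log2 RPKM of the 4 newborn libraries minus the mean of the 2 wild types (open blue), and stars mark the 12 genes that passed in edgeR. Filled red points of the labelled knockouts lie above the blue ones for 39 genes, with Chrng, Pgam2 and Myl2 of the first labelled knockout far below.

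Markers of other tissues differed in both directions between these newborn groups. All 8 smooth muscle genes tested were called higher, their sum being 157 and 219 RPKM in wild types and 1020 and 550 in labelled knockouts, and desmin (Des) is also made by smooth muscle. All 6 basal epidermis genes were called higher (sums of 516 and 768 against 4730 and 4170), and fibroblast genes, 3 of 6 called higher, summed to 988 and 1500 against 4800 and 2990. All 6 rod genes were called lower (sums of 198 to 238 in wild types against 13.3 to 48.8), and none of the 9 lens genes was called. The part of tissue make-up in the members' differences was not tested. The calls rest on few libraries, and leaving out a newborn library leaves 1 in its group. Most or all of the 12 lost their call in each such fit. On leaving out each library the log2 difference ran from 1.62 to 1.85 for Myom2, from 1.72 to 2.06 for Ryr1 and from 0.99 to 1.32 for Myl4. A total of 7 members passed without the adult wild type, which is alone in its group and so adds no estimate of the spread. More members passed on leaving out either adult labelled knockout, but the share of all genes called in those fits is not given.

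In adult eyes no member passed between labelled knockout and wild type (edgeR; 0 at an unadjusted p under 0.05, against 2.88% of all genes; 0 members by DESeq2). No gene of the whole table was called in edgeR (0%). The members' median was -0.42, with 39 of 44 below 0 and a range from -1.76 to 0.91. Acta1, at 682 RPKM in the lone wild type, was at 771 in one labelled knockout and 232 in the other. Ckm was at 591 beside 583 and 188, and Atp2a1 at 444 beside 458 and 123. In these 3 genes the first labelled knockout lay close to the wild type and the second was low. The median was -1.26 without the first labelled knockout and 0.11 without the second, so its sign turned with that library. Genes of the isoform pairs lay between -1.76 (Chrng, on few reads) and 0.8 (Myl2).

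The genotype difference was itself compared between ages. No member passed (edgeR; 19 at an unadjusted p under 0.05, as 20.7% of all genes were; background 0.995% higher and 1.8% lower), and the median difference was -1.49, adult minus newborn. Myom2 had the smallest adjusted p (log2 -2.61, adjusted p = 0.0594, edgeR). DESeq2 called 11 members, all lower, and the share of all genes it called is not given. In edgeR the difference for Myom2 was -3.47 without the first adult labelled knockout and -2.11 without the second.

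At day 3, open eyes held more member RNA than the closed eye of the same mouse, but no member passed. In mouse E24, 41 of 44 members were higher in the open eye with a median log2 difference of 0.71, and in E29 41 of 44 with a median of 0.40. Of all genes, 49.4% and 49.5% were higher. A total of 38 members was higher in the open eye of both mice (28.6% of all genes were). In the fit with the mouse as a block, all 43 members tested lay above 0 with a median of 0.58, and 0 passed (edgeR; 3 at an unadjusted p under 0.05, as 6.25% of all genes were; 0 by DESeq2; background 0.457% higher and 0.0571% lower). Chrne, with 1 to 6 reads an eye, was not tested.

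The size of this difference is best read beside eyes that did not differ in eyelid state. In E32, with both eyes open, the median right minus left difference was 0, with 22 members on each side. In E28, with both eyes closed, it was -1.29, 42 of 44 members were lower in the right eye and 29 of them differed over 2-fold, as 9.05% of all genes did. A pair of closed eyes of 1 mouse thus differed more than the open and closed eyes of E24 or E29. Acta1 was at 740 and 1440 RPKM in the right and left eye of E28, at 1910 (open) and 1200 (closed) in E24, at 3170 (open) and 2020 (closed) in E29, and at 3360 and 2660 in E32. Tnni1 had the smallest adjusted p (log2 0.71 ± 0.24, adjusted p = 0.544, edgeR), at 42.6 open and 24.8 closed in E24 and 56 open and 36.8 closed in E29. Mylpf was at 176 and 84 in E24 and 245 and 152 in E29. With E24 and E29 alone in the fit, 4 members passed, among them Mylpf at 0.88 ± 0.13 (adjusted p = 0.0361, edgeR) and Des at 0.69 ± 0.11 (adjusted p = 0.0486, edgeR). The share of all genes that passed in that fit is not given. Isoform pairs ranged from 0.09 (Chrng) to 0.94 (Tnnc1).

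**Figure D5:**
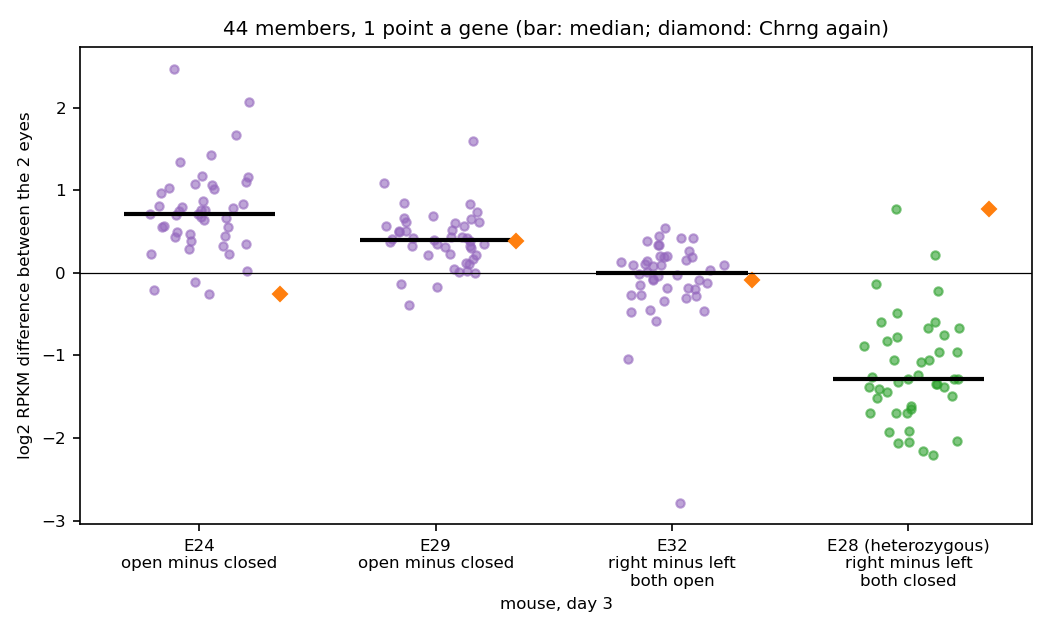
Points give the log2 RPKM difference between the 2 eyes of a day 3 mouse for each of the 44 genes, bars the median, and diamonds repeat the point of Chrng. Medians are 0.71 and 0.40 for open minus closed, 0 for the 2 open eyes of E32 and -1.29 for the 2 closed eyes of E28; the far points of Chrne rest on 1 to 6 reads.

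Some markers of other tissues went with these differences and others did not. Smooth muscle genes summed to 256 RPKM in the open and 153 in the closed eye of E24, to 655 and 337 in E29, and to 174 and 375 in the right and left eye of E28. Basal epidermis genes summed to 2010 open and 563 closed in E24, to 3410 and 765 in E29, and to 873 right and 1210 left in E28. Sums of the cornified epidermis, neutrophil, macrophage and adipocyte lists were also higher in the open eye of E24 and of E29, and the rod sum was lower in each. Schwann cell genes summed to 109 open and 123 closed in E24, to 244 and 255 in E29, and to 125 right and 160 left in E28. Fibroblast genes summed to 2770 open and 2490 closed in E24, to 2030 and 3540 in E29, and to 3590 right and 1800 left in E28, so in E29 and E28 they lay opposite to the median of the members. How much muscle or skin stayed with each eye was not measured, and its part was not tested.

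Chrng did not follow the other members among the day 3 eyes. It was at 47.3 RPKM in the open and 56.5 in the closed eye of E24, at 84.4 and 64.4 in E29, at 63.5 and 67.5 in E32, and at 80.2 and 46.9 in the right and left eye of E28. The right eye of E28, lowest of all 8 in Acta1 and in Chrna1 (0.392), lay next to the highest in Chrng. Pgam2 (147 to 218) and Pygm (46 to 68.9), the muscle glycogen phosphorylase, also varied little, while Ckmt2 ran from 0.283 to 3.15. The alpha and gamma receptor subunits therefore did not keep a fixed ratio across these eyes. Chrna1 was at 0.392 to 3.72 RPKM in the 8 eyes, far below Chrng. Which cells gave the Chrng reads was not measured, so the ratio need not describe the receptor of muscle.

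Labelled-knockout mice were compared with the heterozygous mouse after summing the reads of both eyes, with the lone heterozygous mouse assumed to vary like the others. All 43 members tested lay above 0, with a median of 1.01 beside 0.03 over all genes. None passed (edgeR; 8 at an unadjusted p under 0.05, as 1.66% of all genes were), and no gene of the table did (0%). Actn3, the fast alpha-actinin, was at 1.36 and 2.07 RPKM in the eyes of E28 and at 3.9 to 7.06 in the other 6 eyes (log2 1.84 ± 0.42, adjusted p = 0.999, edgeR), and was the 1 member called by DESeq2 (adjusted p = 0.0199). Chrng had a difference of 0.01 ± 0.29 and Pgam2 of 0.14 ± 0.24. With closed eyes alone the median was 0.52. With 1 heterozygous mouse, whose eyes were both closed while 4 of the 6 labelled-knockout eyes were open, genotype, animal and eyelid state cannot be told apart. Most marker lists of other tissues also had medians above 0 here, with no gene called: 6.29 for cornified epidermis, 6.14 for adipocytes, 2.77 for lacrimal gland, 1.88 for neutrophils, 1.44 for basal epidermis, 1.27 for macrophages, 0.85 for Schwann cells, 0.56 for smooth and for cardiac muscle and 0.47 for fibroblasts. Lens (-0.13) and rod (-0.33) lay below 0. The largest medians rest on low levels or few genes. In the eyes of E28 the cornified list summed to 6.79 and 12.8 RPKM and the adipocyte list to 2.34 and 3.89. In the closed labelled-knockout eyes of E24 and E29 these sums were similar, at 10.7 and 6.84 and at 3.15 and 2.84. The lacrimal list held 2 genes. The part of these tissues in the members' difference was not tested.

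Day 3 labelled knockouts were also set against newborn ones. Of 44 members, 9 were lower at day 3 and none higher (20.5%, against a background of 4.8% lower and 9.09% higher over 17966 genes, edgeR), with a median of -0.74 beside -0.07 over all genes. Scaling by the authors' library totals moved the median of all genes to -0.30 and that of the members to -0.96. Trdn was at 2.93 and 3.67 RPKM in newborn labelled knockouts and at 0.47 to 1.26 in the 6 day 3 eyes (log2 -1.94 ± 0.26, adjusted p = 0.0129, edgeR). Tnni2 was at 338 and 360 in newborn and 70.3 to 173 in day 3 eyes (-1.46 ± 0.26, adjusted p = 0.0219, edgeR). Tnnt3 and Tnnt1 (fast and slow troponin T), Myl1, Casq2, Myoz1, Myot and Ckmt2 fell by 1.07 to 1.24. Acta1 (0.16 ± 0.35), Actn2 (0.03 ± 0.31) and Sgca (-0.02 ± 0.36) had small differences.

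Tnni2 fell while Tnni1 did not pass (log2 -0.22 ± 0.23), and the share of Tnni2 in the pair was 85.8% and 89.8% in newborn labelled knockouts and 69.6% to 78.9% in the 6 eyes at day 3. Chrng was the member with the largest difference upward (1.67 ± 0.66, adjusted p = 0.12, edgeR) and Chrne, on few reads, the one with the largest downward (-2.16 ± 0.77, adjusted p = 0.0964, edgeR). The 9 calls depended on single samples. None of them passed without the first newborn wild type, without either newborn labelled knockout or without mouse E29, and only Trdn passed without the second newborn wild type. Without the second newborn labelled knockout a member outside the 9 passed, as higher. Without mouse E32 the count was 19, and the share of all genes called in that fit is not given. Newborn and day 3 samples were separate sets, labelled in different ways, so age and set cannot be told apart. Smooth muscle genes summed to 1020 and 550 RPKM in the newborn labelled knockouts and to 153 to 766 in the 6 eyes, and the part of tissue make-up was not tested.

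Other muscle genes were read from lists that do not hold the members. In newborn labelled knockouts, 11 of 36 other sarcomere genes, 4 of 24 other excitation-contraction genes, 6 of 15 other end plate genes, 7 of 15 genes of the dystrophin complex and 12 of 22 myosin heavy chain and myogenic factor genes were called higher than in wild types, and none was called lower. Of 26 muscle energy genes 3 were higher and 1 lower. The background was 14.6% higher and 9.38% lower, which the excitation-contraction and energy lists lay near. The summed level of the other sarcomere list did not follow the members. It was 2250 and 2720 RPKM in newborn wild types and 834 and 2440 in labelled knockouts, the 834 in the library poor in lens genes. At day 3 it was 2610 to 3310, while the members ran from 1720 to 6710. Which tissue its most abundant genes came from was not tested. Between adult and newborn eyes, 16 of the 26 energy genes were called higher and 1 lower, while 3 of 36 other sarcomere genes were higher and 15 lower, beside 25.3% and 24% of all genes. Myh8, the perinatal myosin heavy chain, was at 25.9 to 156 RPKM in the 12 young libraries and 0.594 to 2.11 in adults, and Myh4, a fast adult form, at 1.87 to 13.6 and 25.2 to 100.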

How the data were processed

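Poly(A)+ RNA of eyes was sequenced on an Illumina HiSeq from adaptor-ligated double-stranded cDNA, which keeps no strand, per the labels' protocols. The labels speak of fixed eyes in one place and of storage in RNAlater in another, and which applies to the sequenced eyes is not clear. The submitters' processing notes name the build mm8 and, among tools, TopHat2 2.0.11, Bowtie 0.12.9, SAMtools and CASAVA 1.8. The annotation release and the counting tool are not given in the sources used here. The deposited table of each library gives the authors' read counts for 24373 RefSeq transcripts, and their RPKM values, which were used only to recover the authors' library totals.

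The transcript with the most reads was kept for each symbol, 11 members having several. Counts were fitted over all genes in R 4.3.3 with edgeR 4.0.16 (TMM, filterByExpr, quasi-likelihood test, Benjamini-Hochberg threshold of 0.05), and levels were recomputed as RPKM on TMM-scaled totals. The SE is the size of the log2 fold change over the square root of F. All 7 libraries of adults and newborns entered a single model of group means, in which the lone adult wild type is assumed to vary like the other groups. For eyelid state the day 3 model had a term for each mouse. For the other day 3 comparisons the reads of each mouse were summed. The scripts were run on simulated data with known changes of a single large size and a fixed spread. That checks the code and not the power for smaller changes in these libraries. DESeq2 1.42.0 was an alternative, with other scalings, filters, transcripts and samples left out. Replicates of a group differed by more than sampling noise (median chi-square per gene from 2.99 to 27.5). Depth was 20334849 to 43907093 reads per library. Counting error is only small for well-covered genes. Reads are given for Chrne, and in adult eyes for Chrng and Myl3, but not for the other low members. PCR copies were not removed with molecular identifiers.

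The members and the 18 lists of other genes were chosen with earlier results of these data known. Every member is described by role, with isoform pairs and, in each comparison, those that passed. Where none passed, only some members are given, and these are not always the ones with the smallest p. Exon overlaps were taken from an annotation of a later build (17 of 44 members share bases with another gene, 6 with a protein-coding one). Promoter windows are those of RefSeq.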

Additional observations from a re-analysis of the deposited data

Results flagged for a closer look

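Among the 4 open eyes of day 3, 8 of the 44 members had 1 eye far from the other 3. The rule flags about 1 group in 20 of independent values. The members rise and fall together in an eye, so the 8 flags are not separate observations and cannot be set against that rate. The right eye of E24 was the lowest for 6 of them. It was at 4.99 RPKM for Actn3 (6.83 to 7.06 in the other 3 eyes), at 43.1 for Myl4 (58.4 to 61.3), at 49.1 for Pygm (67.7 to 68.9), at 68.2 for Eno3 (100 to 107), at 3.7 for Cacna1s (6.43 to 6.89) and at 10 for Ldb3 (13.6 to 14.1). The left eye of E32 was the highest for Myot, at 6.72 (5.31 to 5.52), and for Trdn, at 1.26 (0.92 to 0.963). The eyes of E32 come from 1 mouse. The summed level of all members was 3950 RPKM in the right eye of E24 and 5770 to 6710 in the other 3.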

How the results depend on the processing

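Direction was followed for the members that passed in a comparison, or for the 5 with the smallest p where fewer passed. None of these turned its direction in any alternative. Other members named above, such as Acta1 in adult eyes, were not followed in this way, and the sign of the adult median did turn. Adult against newborn gave 21 members and 15 to 32 on leaving out each library, the 32 being the only count outside 1.5 times of 21. Adult labelled knockout against wild type gave 0 in every alternative run. For newborn labelled knockout against wild type (12 members), the count was 5 with a mean of at least 5 RPKM asked for, 23 by DESeq2, 0 to 32 on leaving out each library, and 1 with a replicate block. The replicate numbers pair no samples by the labels, and the same-numbered deviations had a correlation of 0.0298 over 14957 genes. The block left the genotype difference between ages at 0 members, and this was 1 with no filter, 11 by DESeq2 and 0 to 33 on leaving out each library. Open against closed eyelids gave 4 members with E24 and E29 alone. Labelled knockout against heterozygous at day 3 gave 1 by DESeq2. Day 3 against newborn labelled knockout (9 members) gave 17 by DESeq2 and 0 to 19 on leaving out each library or mouse. Leaving out a library also leaves fewer samples. Shares of all genes called are not given for the alternatives, so their counts are not a result about the members. The cause of the other changes was not tested. Genes of few reads (Chrne, with 1 to 25 a library) limit what can be read from them.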
